A study of Caenorhabditis elegans with 2 samples.

Results

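Of the 2712 peaks in the thresholded LIN-35 ChIP-seq list of young adult Caenorhabditis elegans, 307 autosomal peaks lay inside introns and away from the starts of coding genes. A peak was counted when its summit, the position of highest enrichment, fell inside a protein-coding gene on chromosomes other than X and the mitochondrial genome. The summit also had to lie in no annotated exon of any gene and more than 500 bp from the 5' end of every protein-coding gene (ce11 coordinates, Ensembl annotation of WBcel235). These positions were taken from the genome and the annotation, and no enrichment value was used to choose among the thresholded peaks. The autosomes held 2306 thresholded peaks in all. Of these, 1252 had a summit within 500 bp of a coding 5' end (promoter peaks), and 446 were outside every annotated gene and farther from coding 5' ends (distal intergenic peaks). Of the autosomal intronic peaks, 294 had a summit within 200 bp in both replicate lists, but only 124 had one among the 2712 strongest peaks of both. In windows of 201 bp around the summits, GAGA repeats were more frequent and the DREAM motifs less frequent than at promoter peaks. At intronic and distal intergenic peaks the GAGA repeat was in 43.6% and 47.5% of windows. Of the DREAM motifs, the E2F site was in 13.7% and 16.4% of them and the CHR element in 33.6% and 43.5%. These comparisons were not matched for GC content or signal. Shares by GC band, and for the DREAM motifs also by signal, are given below. The reversed word of the E2F site, used as a control, was also less frequent at intronic peaks.

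Whole young adults, males and females pooled and of unknown age, were profiled as 1 group with 2 biological replicates. Both come from strain YL521, with the genotype unc-119(ed3) III and the integrated transgene vrIs117, which carries an unc-119(+) rescue gene and a LIN-35 fusion with GFP and FLAG between the pie-1 promoter and the 3' UTR of puf-5. Both replicates carry the mutation and the transgene, and no strain without them was analysed here. Both pie-1 and puf-5 supply germline regulatory sequences, while the antibody is labelled lin-35, so tagged and endogenous LIN-35 cannot be told apart. In whole animals, a peak bound in few cells and one bound weakly in many cannot be told apart either. The deposited signal of a peak has no stated scale and serves here only for ranking and description inside a single list.

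LIN-35 is the only retinoblastoma-family pocket protein of C. elegans. It does not bind DNA itself, and in the DREAM complex the E2F and DP proteins and LIN-54 contact the E2F site and the CHR element, usually in promoters of cell cycle genes. Introns are removed from the transcript, but their DNA can hold enhancers, internal promoters of shorter transcripts and whole genes for small RNAs. GAGA repeats are bound in the worm by the zinc finger protein EOR-1, and the E-box CACGTG by basic helix-loop-helix proteins such as the MXL and MDL families. Transcription factor ChIP-seq in worms also recovers regions where many unrelated factors are found.

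The sequences around the summits show the main features. Each is 151 bp centred on a summit, from the plus strand of the RefSeq WBcel235 genome (the ce11 build), and holds no exon base. The first pair shows the GAGA repeat, with each GAGAGA or TCTCTC in capitals: the peak in intron 1 of unc-119, the strongest with the repeat, and the peak in intron 1 of daf-14, which has a long uninterrupted run.

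unc-119, chrIII:10905274-10905424: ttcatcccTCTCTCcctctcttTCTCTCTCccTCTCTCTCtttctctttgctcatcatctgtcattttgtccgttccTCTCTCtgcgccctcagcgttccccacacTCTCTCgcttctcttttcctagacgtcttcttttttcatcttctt
daf-14, chrIV:10252495-10252645: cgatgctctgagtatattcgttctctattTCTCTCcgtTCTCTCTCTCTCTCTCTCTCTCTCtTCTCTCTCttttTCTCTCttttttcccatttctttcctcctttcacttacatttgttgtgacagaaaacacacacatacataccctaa

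The unc-119 window holds 7 overlapping or separate copies of the word, which start between 67 bp before and 31 bp after the summit. In daf-14 the longest uninterrupted alternation of G and A, or of C and T, is 25 bases long. Both runs are written as C and T on this strand. The second pair shows GAGACGC or its complement GCGTCTC in capitals, a word that came up in a scan of all 7-base words.

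Y111B2A.12, chrIII:12612538-12612688: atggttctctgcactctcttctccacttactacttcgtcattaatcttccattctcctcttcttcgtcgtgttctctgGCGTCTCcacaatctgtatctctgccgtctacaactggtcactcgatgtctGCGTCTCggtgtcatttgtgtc
ida-1, chrIII:5758801-5758951: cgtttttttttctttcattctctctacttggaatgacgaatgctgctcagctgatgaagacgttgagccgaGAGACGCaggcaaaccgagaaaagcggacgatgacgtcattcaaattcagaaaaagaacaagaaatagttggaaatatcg

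Y111B2A.12 has the word at 2 places, and in ida-1 it starts 4 bp before the summit. The third pair shows the E2F site, TTSSCGC with S for C or G, in capitals on whichever strand it occurs.

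scc-2, chrII:255263-255413: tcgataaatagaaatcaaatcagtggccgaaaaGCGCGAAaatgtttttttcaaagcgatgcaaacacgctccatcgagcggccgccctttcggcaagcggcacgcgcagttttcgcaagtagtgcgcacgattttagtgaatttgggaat
pqn-41, chrIII:1925277-1925427: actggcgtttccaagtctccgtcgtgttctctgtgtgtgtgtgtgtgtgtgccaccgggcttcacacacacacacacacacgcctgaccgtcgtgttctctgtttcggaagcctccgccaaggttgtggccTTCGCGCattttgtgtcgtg

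Both windows hold 1 E2F site, which starts 42 bp before the summit in scc-2 and 56 bp after it in pqn-41. The scc-2 peak is the strongest of all 307. The fourth pair shows the E-box CACGTG in capitals.

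nurf-1, chrII:14399700-14399850: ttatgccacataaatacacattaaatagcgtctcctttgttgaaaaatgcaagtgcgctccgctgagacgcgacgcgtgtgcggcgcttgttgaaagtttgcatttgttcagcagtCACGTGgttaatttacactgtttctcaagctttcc
nhr-19, chrII:9603564-9603714: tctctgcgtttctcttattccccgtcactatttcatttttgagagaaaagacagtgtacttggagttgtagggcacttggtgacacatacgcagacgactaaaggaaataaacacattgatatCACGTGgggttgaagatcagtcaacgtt

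In nurf-1 the E-box starts 41 bp after the summit and in nhr-19 it starts 48 bp after. The nurf-1 window also carries the word of the second pair. The last pair shows in capitals GTTCNANNC, a pattern like the B box, an internal promoter element of tRNA genes.

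Y57G11C.22, chrIV:14838264-14838414: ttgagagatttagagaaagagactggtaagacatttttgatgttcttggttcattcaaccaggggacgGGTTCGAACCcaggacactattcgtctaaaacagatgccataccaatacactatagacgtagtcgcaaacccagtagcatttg
srt-52, chrV:53437-53587: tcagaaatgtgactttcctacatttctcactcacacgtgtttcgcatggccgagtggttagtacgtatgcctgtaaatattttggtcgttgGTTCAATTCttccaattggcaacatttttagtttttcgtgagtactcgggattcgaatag

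Neither summit has an annotated noncoding gene within 200 bp. The peaks shown were picked for these words after the shares given below had been seen, and they illustrate the words rather than stand for the average peak.

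The intronic peaks were weak to moderate within the list. Their signals ran from 41.9 to 281 with a median of 57.0, against medians of 84.4 for promoter and 62.2 for distal intergenic peaks, and the strongest held rank 154 of 2712. Of the 307, 101 were among the 1356 strongest peaks (32.9%, 95% Wilson interval 27.9 to 38.3), where 50% of all thresholded peaks are by construction. For promoter peaks this share was 61.98%, a difference past the threshold (odds ratio 0.301, adjusted exact p = 7.42e-19). For distal intergenic peaks it was 40.8%, and that difference did not pass (odds ratio 0.711, adjusted exact p = 0.0640). With the distance limit at 200 bp in place of 500 bp it did pass (odds ratio 0.472, adjusted exact p = 3.51e-08). These and the motif comparisons are 18 two-sided tests by Fisher's exact method, with p-values adjusted by Benjamini and Hochberg's procedure. Peaks are their units, so the p-values compare peaks within these lists and say nothing about variation between animals. Wilson intervals throughout cover counting error only, and the sequencing depth of the libraries is unknown here.

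The strongest peaks lay in genes of varied function. The scc-2 gene, which encodes the cohesin loader, had the strongest at chrII:255236-255452 in intron 1, with a signal of 281. It held signals of 101 in the list of replicate 1 and 176 in that of replicate 2, at ranks 172 and 160. In wht-3, a gene of an ABC transporter of the White type, a peak in intron 2 (chrIII:4150918-4151152) had a signal of 270 in the thresholded list, 84.7 in replicate 1 and 195 in replicate 2. In both replicates these were among the highest values of the intronic peaks. A peak in intron 4 of Y111B2A.12 (chrIII:12612512-12612793) had a signal of 248, with ranks 317 and 153.

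Some of the strongest peaks lay beside small RNA genes. In dhc-4, which encodes a dynein heavy chain, the peak in intron 31 (chrIII:10989454-10989814, signal 246, ranks 296 and 134) was 36 bp upstream of an annotated snRNA gene. In pxn-1, a peroxidasin gene, the peak in intron 17 (chrV:8500427-8500675, signal 234.7, ranks 125 and 338) was 29 bp upstream of a snoRNA gene. Genes for snRNAs and tRNAs exist in near-identical copies, so reads at these 2 kinds of gene may be shared among copies. In rsa-2, which acts in spindle assembly at centrosomes, the peak in intron 7 (chrIII:11066901-11067105, signal 172) was 42 bp upstream of a tRNA gene. It ranked 1562 in replicate 1 and 280 in replicate 2.

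The other members of the 20 strongest had signals from 141 to 180. They lay in unc-119, W06H8.6, cutl-18, Y65A5A.2, the autophagy gene epg-9, the MAP kinase-interacting kinase gene mnk-1, nurf-1 of the NURF chromatin remodeller and the SET domain gene set-18. They also lay in ari-1.4 (an Ariadne-type ubiquitin ligase gene), pqn-41 (a glutamine- and asparagine-rich protein gene), Y38F2AR.12, zfp-1 (a PHD zinc finger gene related to AF10), pbrm-1 (a polybromo subunit of SWI/SNF) and ida-1. The last encodes an IA-2-like protein of dense core vesicles. All 20 had a summit among the 2712 strongest of both replicates.

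Replicate support fell with signal. Of the 307 peaks, 294 (95.8%, interval 92.9 to 97.5) had a summit within 200 bp in both full replicate lists, against 94.1% of all thresholded peaks. The share was 96.01% for promoter peaks (odds ratio 0.941, adjusted exact p = 0.871). With summits matched within 100 bp intronic peaks were below promoter peaks (odds ratio 0.433, adjusted exact p = 3.66e-06), and within 500 bp the direction turned (odds ratio 3.17, adjusted exact p = 0.0744). The full lists hold 30000 and 26192 relaxed entries, so this is a weak requirement. Among the 2712 strongest of both replicates there were 124 (40.4%, interval 35.1 to 45.97), against 53.3% of all thresholded peaks. That was below the 62.5% of promoter peaks (odds ratio 0.407, adjusted exact p = 2.02e-11), and not past the threshold against the 47.8% of distal intergenic peaks (odds ratio 0.741, adjusted exact p = 0.0944). With the distance limit at 200 bp the latter passed (odds ratio 0.560, adjusted exact p = 1.42e-05). Among the 1356 strongest peaks alone, the difference from promoters did not pass (odds ratio 0.667, adjusted exact p = 0.348). The thresholded list was itself built from both replicates, so these shares are no independent test of the peaks.

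Within successive groups of 678 peaks, strongest first, the supported intronic peaks numbered 38 of 39, 45 of 62, 33 of 86 and 8 of 120. For promoter peaks the shares in the same groups were 97.1%, 73.8%, 31.4% and 8.54%, and for intronic peaks 97.4%, 72.6%, 38.4% and 6.67%. Intronic peaks were concentrated in the weakest group, with 39.1% of them there against 15.9% of promoter peaks. The lower overall support of intronic peaks thus went with their lower signals, and within groups of like signal the shares were close. The signal of the thresholded list comes from both replicates and so is tied to this support in any class of peaks. The match within groups is therefore a description and not a separate result.

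Unsupported peaks more often came from replicate 2. Among the intronic peaks outside the shared set, 42 were among the strongest of replicate 1 only, 108 of replicate 2 only and 33 of neither. Over all thresholded peaks these counts were 376, 672 and 219. Replicate 2 gave the better rank for 184 of the 294 peaks found in both lists (62.6%), against 55.9% of all such peaks. The plot of replicate signals shows this as a cloud of points with high replicate 2 and low replicate 1 values.

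**Figure D1:**
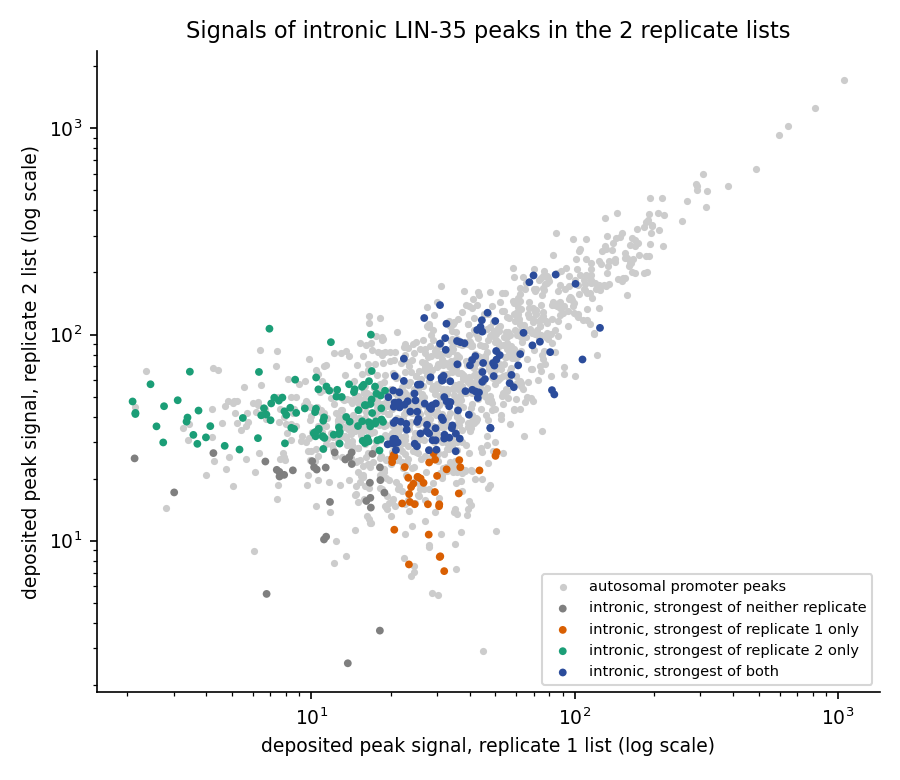
Deposited peak signal in the replicate 1 list (x axis, log scale) against that in the replicate 2 list (y axis, log scale, units not stated) for peaks found in both lists within 200 bp. Colours give the 294 intronic peaks by whether the summit was among the 2712 strongest of both replicates, of 1 of them or of neither, and light grey shows promoter peaks; the intronic peaks sit in the lower part of the promoter range, and those of replicate 2 only spread far to the left.

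The character of the peaks differed between the replicate lists. Cut to its own 2712 strongest peaks, replicate 1 gave 306 peaks under the same rule and replicate 2 gave 334. In replicate 1 the mean GC content of their windows was 40.4%, the GAGA repeat was in 33.3% and the first intron held 21.6%. In replicate 2 these values were 43.6%, 43.7% and 31.7%. With 1 library each, this difference was not tested.

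Intronic peaks were sparse per base of intron. Introns meeting the same rule span 23.7 Mb, 28.8% of autosomal sequence, while the intronic peaks were 13.3% of autosomal thresholded peaks. Densities ran from 10.1 peaks per Mb of such sequence on chromosome V and 10.97 on chromosome I to 13.4 on IV, 15.3 on III and 15.8 on II. The counts were 50, 58, 65, 71 and 63 peaks. Of the 307, 198 (64.5%, interval 59.0 to 69.6) lay in the central 50% of their chromosome by length, where 42.1% of the eligible windows lie. Eligible windows are 118114 windows of 201 bp, the length used for motifs, with centres on every 201st base of the sequence where a summit would have met the rule.

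Long introns and first introns held more of the peaks than their share of sequence. The intron around the summit had a median length of 2047 bp, against 1044 bp for eligible windows, and 82 peaks (26.7%, interval 22.1 to 31.9) were in introns over 5000 bp, against 13.97% of windows. First introns held 95 peaks (30.9%, interval 26.0 to 36.3) and 17.3% of windows. Among the strongest peaks of each replicate alone, the first-intron share was 21.6% in replicate 1 (interval 17.3 to 26.5) and 31.7% in replicate 2. The intron is that of the host transcript with the longest span. In 99 peaks the 201 bp window reached an exon (32.2%), close to the 34.2% of eligible windows.

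Nearness to the rule's limits is shown by single peaks. Just inside the limit of 500 bp were peaks in twk-5, a potassium channel gene, and ppat-1, 503 and 506 bp from the gene's own 5' end, and a peak in zfp-1, 513 bp from the 5' end of F54F2.6. Their signals were 119.8, 112.03 and 119.6. Just outside it were intronic peaks in T26A8.4 at 499 bp and in T04D3.8 and alh-1 at 468 bp, with signals of 47.6, 51.5 and 46.3. The farthest member lay 21945 bp from any coding 5' end, in intron 11 of the calcium pump gene mca-3 (signal 43.3, ranks 6709 and 3388). At the lower end of signal, the weakest member was in sre-1, a chemoreceptor gene, with 41.88 and rank 2712. The first intronic peak below it, in gcy-28, a receptor-type guanylyl cyclase gene, had a signal of 41.85 in the pooled list.

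Part of the set lay beside starts of alternative transcripts. The rule used the outermost 5' end of each gene, and 69 peaks (22.5%, interval 18.2 to 27.5) were within 500 bp of the 5' end of another coding transcript of the host gene, against 9.08% of eligible windows. Of these 69, 58 were upstream of that 5' end (84.1%, interval 73.7 to 90.9), against 59.6% of the windows within the same distance. The side was looked at after the shares had been seen. Annotated 5' ends of worm transcripts often mark the trans-splice site rather than the start of transcription.

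The strongest of these were scc-2, 142 bp upstream of a shorter transcript, and wht-3, 152 bp upstream of one. In Y65A5A.2 a pair of peaks in intron 3 lay 447 bp downstream and 279 bp upstream of a transcript start, with signals of 167 and 133. The nurf-1 peak (signal 163) was 277 bp upstream of a start, and the T02E1.2 peak (signal 128) was 154 bp upstream of one. Among the 69 peaks, 25 were supported by the strongest of both replicates (36.2%), against 99 of the 238 farther away (41.6%). The CHR element was in 44.9% of their windows and the GAGA repeat in 36.2%.

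Small RNA and other noncoding genes accounted for another group. The nearest noncoding gene was within 200 bp of the summit for 66 peaks (21.5%, interval 17.3 to 26.4), against 6.22% of eligible windows. Genes of the class ncRNA were nearest for 37 peaks, snoRNA genes for 15, tRNA genes for 6, piRNA genes for 3, snRNA and miRNA genes for 2 each and a lincRNA gene for 1. The snoRNA share was 4.89% of peaks and 0.134% of windows, and the tRNA share 1.95% and 0.0618%. The piRNA genes went the other way, with 0.977% of peaks and 3.31% of windows. A summit inside a noncoding exon was excluded by the rule, so these are peaks beside such genes only.

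Peaks beside snoRNA genes were stronger than the set as a whole, with a median signal of 109 and 11 of 15 supported by both replicates. The summit was upstream of the snoRNA gene in 13 of the 15, at a median distance of 45 bp. After pxn-1, examples were Y38F2AR.12 (signal 148), C08D8.1 (129.2) and twk-5, and the condensin gene mix-1 had one in intron 13 with a signal of 109. Introns around the 66 peaks beside noncoding genes had a median length of 716.5 bp, against 2686 bp for the other 241 peaks. The pattern GTTCNANNC was in 22 of the 66 windows and in 13 of the 241. Over all 307 it was in 11.4% (interval 8.31 to 15.4), against 5.87% of eligible windows and 6.55% of promoter windows. Distal intergenic windows held it in 8.74% (interval 6.46 to 11.7). It was 1 of 4 tRNA-box patterns looked at after seeing the data.

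Of the 6 words tested, the GAGA repeat had the highest share relative to eligible windows. GAGAGA or TCTCTC was in 134 of 307 windows (43.6%, interval 38.2 to 49.2), against 8.34% of eligible intronic windows. Promoter windows held it in 25.3% (odds ratio 2.28, adjusted exact p = 3.27e-09). Distal intergenic windows held it in 47.5%, and that difference did not pass (odds ratio 0.855, adjusted exact p = 0.413). A run of at least 10 alternating bases was in 40 windows (13.03%, interval 9.72 to 17.3), against 0.656% of eligible windows, 2.32% of promoter windows and 10.3% of distal intergenic windows. Runs of at least 16 bases were in 11 intronic windows (3.58%), against 0.161% of eligible, 0.399% of promoter and 4.04% of distal intergenic windows.

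The GAGA copy nearest to the summit was often close to it. In 97 of the 134 windows with the word (72.4%, interval 64.3 to 79.3), the copy nearest to the summit was within 50 bp of it, against 53.2% of eligible windows with the word. The share was 68.4% for distal intergenic and 63.4% for promoter windows with the word, so this was not particular to intronic peaks. Long runs were more frequent in member windows, and with more copies the nearest lies closer to any centre. The comparison was not matched for the number of copies, so it cannot show by itself that summits sit on the repeat. On the strand of the host gene's transcript, 77 windows had only the pyrimidine form, TCTCTC, 35 only the purine form and 22 both. Eligible windows had 5155, 4256 and 445. The word was in 110 of 198 peaks in introns of at least 1000 bp (55.6%, interval 48.6 to 62.3) and in 24 of 109 in shorter introns (22.02%).

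**Figure D2:**
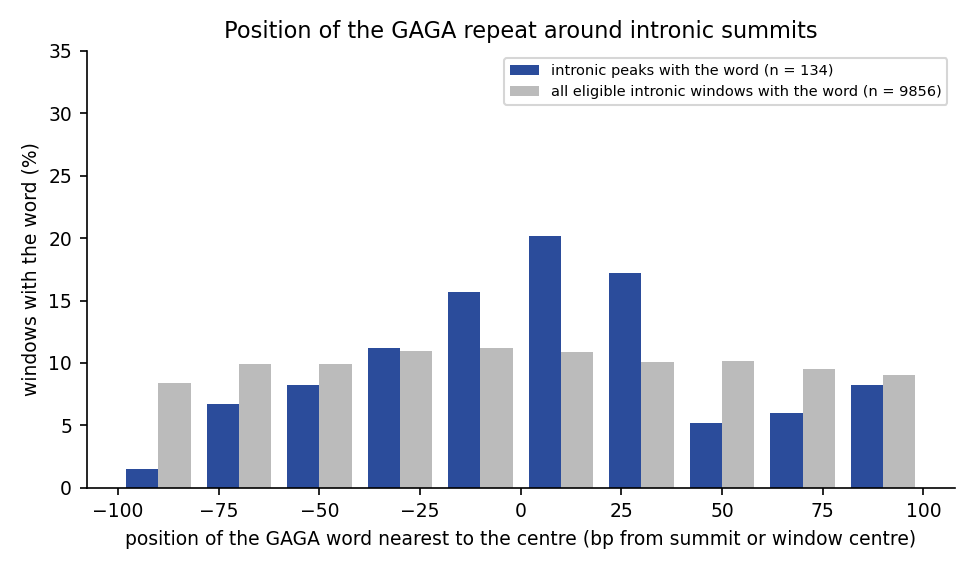
Position of the GAGA word nearest to the centre, in bins of 20 bp relative to the summit (x axis, bp), as a percentage of windows that hold the word (y axis). Blue bars are the 134 intronic peaks with the word and grey bars the 9856 eligible intronic windows with it, not matched for the number of copies per window. The blue bars are highest within 40 bp of the summit, while the grey bars are nearly level.

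Base composition moved with these results. Member windows had a mean GC content of 43.3% (SD 7.31, n = 307 windows), eligible windows 33.6%, promoter windows 39.6% and distal intergenic windows 42.99%. Soft-masked repeat sequence made up a mean of 24.9% of member windows and 49.8% of eligible windows. Within bands of GC content the GAGA repeat remained more frequent in members than in eligible windows. It was in 19.8% against 6.89% of windows under 40% GC, in 44.6% against 13.9% from 40 to 45%, and in 62.1% against 16.3% at 45% or more.

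The word GAGACGC was found with GAGA repeats and alone. It was in 52 member windows (16.9%, interval 13.2 to 21.5), against 1.66% of eligible windows, 12.2% of promoter windows and 18.4% of distal intergenic windows. Of the 52, 35 also held the GAGA repeat, with which its first letters can overlap. It was picked from the 230 words of 7 bases present in at least 25 member windows, of 8192 possible words with strands joined, and ranked among the highest by ratio to eligible windows. CTGCGTC, which overlaps it, was in 53 member windows and 1.70% of eligible windows. These words were found and counted in the same windows, so their shares carry no test.

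The E-box was also more frequent at intronic peaks than at promoters. CACGTG, which reads the same on both strands, was in 34 windows (11.07%, interval 8.03 to 15.1), against 4.71% of promoter windows (odds ratio 2.52, adjusted exact p = 0.000237) and 3.01% of eligible windows. Distal intergenic windows held it in 7.17% (odds ratio 1.61, adjusted exact p = 0.110). By GC band the member shares were 10.8%, 14.3% and 10%, against 2.29%, 6.42% and 5.63% of eligible windows. The promoter shares in these bands were 3.61%, 4.93% and 7.66%. Among the 124 peaks supported by both replicates only 7 had it (5.65%), against 18 of the 108 among the strongest of replicate 2 only (16.7%). The call against promoters was lost in replicate 1 alone (6.54% of its intronic windows, odds ratio 1.60, adjusted exact p = 0.224) and among the 1356 strongest peaks (odds ratio 1.52, adjusted exact p = 0.755).

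**Figure D3:**
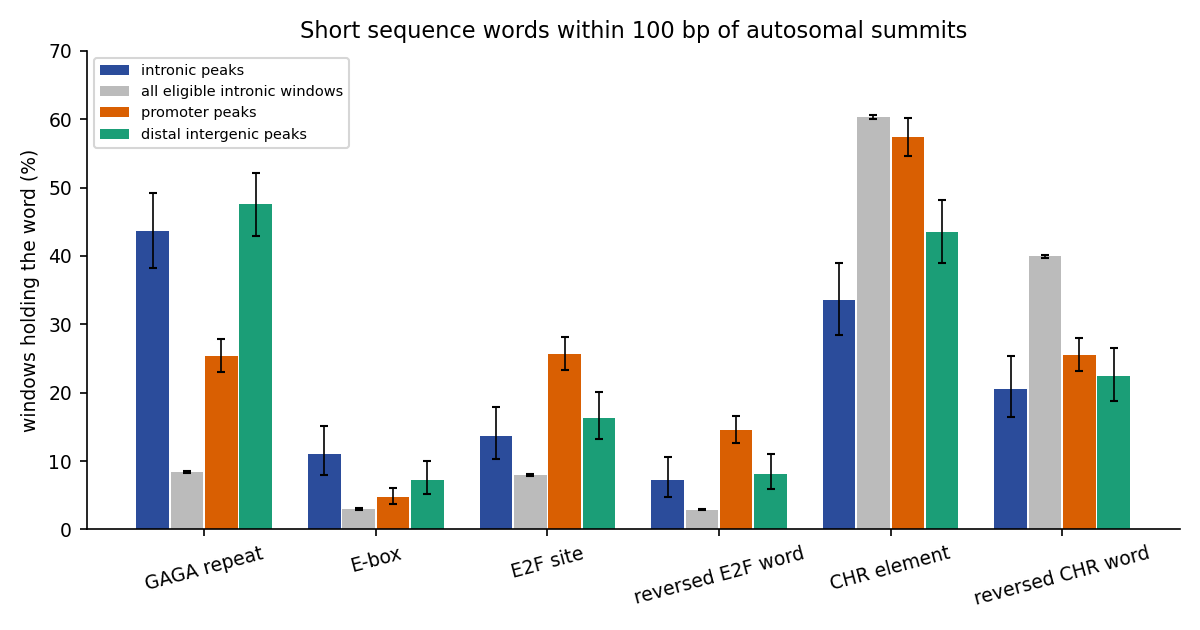
Percentage of 201 bp windows (y axis, with 95% Wilson intervals) that hold each short word on either strand, for 307 intronic peaks, 118114 eligible intronic windows, 1252 promoter peaks and 446 distal intergenic peaks. The GAGA repeat is in 43.6% of intronic, 47.5% of distal intergenic and 25.3% of promoter windows, and intronic peaks are below promoter peaks in E2F sites and CHR elements.

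The E2F site was less frequent at intronic peaks than at promoters, and so was its reversed word. TTSSCGC was in 42 member windows (13.7%, interval 10.3 to 17.98), against 7.99% of eligible intronic windows and 25.6% of promoter windows (odds ratio 0.460, adjusted exact p = 1.94e-05). The reversed word, CGCSSTT, which has the same base composition and serves as a control, was in 7.17% of member, 2.88% of eligible and 14.5% of promoter windows (odds ratio 0.454, adjusted exact p = 0.00112). Among the 1356 strongest peaks the call for the reversed word was lost (odds ratio 0.859, adjusted exact p = 0.937), while that for the E2F site held (odds ratio 0.413, adjusted exact p = 0.00578). Within GC bands the E2F share of members was 17.1%, 16.1% and 10%, against 6.42%, 13.8% and 16.8% of eligible windows. Members were above the eligible windows under 40% GC and, by less, from 40 to 45%, and below them at 45% or more. The distal intergenic share was 16.4% (odds ratio 0.810, adjusted exact p = 0.455).

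The CHR element was less frequent than in any group it was compared with. TTYGAA, with Y for C or T, was in 103 windows (33.6%, interval 28.5 to 39.0), against 60.3% of eligible intronic windows. Promoter windows held it in 57.4% (odds ratio 0.374, adjusted exact p = 4.66e-13) and distal intergenic windows in 43.5% (odds ratio 0.656, adjusted exact p = 0.0143). The word is rich in A and T, and by GC band members had 53.2%, 41.1% and 15.0%, against 65.8%, 41.4% and 25.7% of eligible windows. Its reversed word was in 20.5% of member, 39.9% of eligible intronic and 25.6% of promoter windows (odds ratio against promoters 0.752, adjusted exact p = 0.113). By GC band members had the reversed word in 33.3%, 17.9% and 11.4%, against 42.5%, 31.1% and 23.6% of eligible windows. The deficit against eligible windows was thus not particular to the CHR element. The call against distal intergenic peaks was lost in either replicate alone (CHR odds ratio 0.916 and 0.724, adjusted exact p = 0.800 and 0.0748). It was also lost when motifs were counted within 50 bp of the summit (odds ratio 0.893, adjusted exact p = 0.707), with the distance limit at 1000 bp (odds ratio 0.734, adjusted exact p = 0.179) and among the 1356 strongest peaks (odds ratio 0.578, adjusted exact p = 0.170).

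Windows with both DREAM motifs numbered 21 (6.84%, interval 4.52 to 10.2), against 17.8% at promoters, 8.97% at distal intergenic peaks and 4.72% of eligible windows. The strongest was again scc-2, followed by set-18 (signal 163, intron 3), ari-1.4 (159, intron 3), Y75B8A.25 (116, intron 4), the PP2A regulatory subunit gene pptr-2 (103.8, intron 2) and gei-4 (103, intron 1). The Y75B8A.25 peak held rank 349 in replicate 2 and 12815 in replicate 1. The gei-4 peak, at rank 335 in replicate 2, had no summit within 200 bp in the list of replicate 1. These 2 peaks rest on replicate 2.

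The 307 peaks lay in 252 host genes. A single peak was found in 214 of them, 2 in 27, 3 in 6, 4 in 4 and 5 in 1. A thresholded summit lay within 500 bp of the host's own 5' end for 39 of the 252 (15.5%, interval 11.5 to 20.5). Over all 12898 autosomal coding genes with eligible windows, hosts included, the count was 1136 (8.81%), and the difference was not tested. Long genes offer more intron, and host choice was not corrected for length.

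Several genes held clusters of peaks, most of them in long introns. The 5 peaks of mnk-1 lay in introns 2, 3 and 5, with signals of 164, 92.5, 61.8, 49.01 and 45.9; 3 lay in its intron 2 of 5833 bp, and the peak of 92.5 was 118 bp upstream of an alternative transcript's 5' end. The peaks of 61.8 and 45.9, the ones without support from both replicates, ranked 523 and 1216 in replicate 1 but 2882 and 11241 in replicate 2. The 4 peaks of zfp-1 had signals of 144, 120, 110.8 and 81.3 in introns 4 and 9, each with a GAGA repeat and each supported by both replicates. In pqn-41 the 4 peaks all lay in intron 14, which is 10372 bp long, with signals of 157, 70.1, 61.5 and 56.2.

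Weaker clusters were in nhr-19, a nuclear hormone receptor gene, and ccch-1, a CCCH zinc finger gene. The 4 nhr-19 peaks had signals from 45.6 to 84.7, and none was among the strongest of both replicates. Those of ccch-1 had signals from 42.2 to 65.3, with 1 supported. Genes with 3 peaks were daf-5, ppfr-1 (a protein phosphatase 4 regulatory subunit gene), Y43F8B.2, aakg-1 (an AMP-activated kinase gamma subunit gene), ell-1 and pde-2 (a phosphodiesterase gene), with strongest signals from 54.2 to 84.3.

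**Figure D4:**
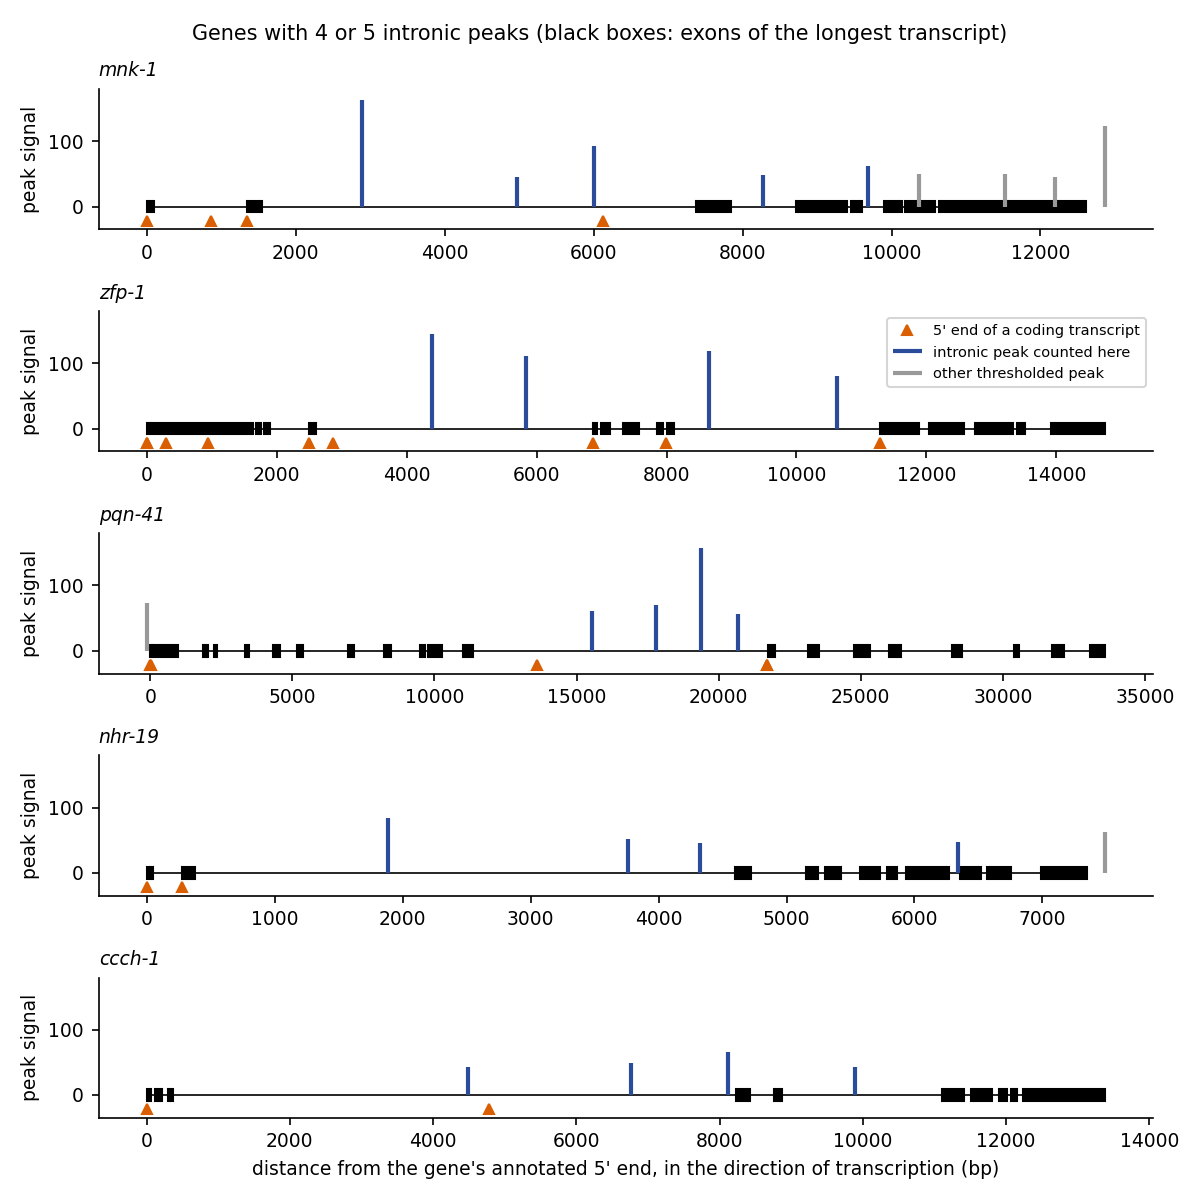
Gene models of the 5 host genes with 4 or 5 intronic peaks, with distance from the annotated 5' end in the direction of transcription on the x axis (bp) and peak signal on the y axis (units not stated). Black boxes are exons of the longest transcript, triangles are 5' ends of coding transcripts, blue lines are the intronic peaks counted here and grey lines other thresholded peaks; most blue lines fall in the longest introns of each gene.

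A list of DNA replication and cell cycle genes, the classical targets of DREAM, held 1 host of these peaks. Of 35 listed DNA replication and cell cycle genes with eligible windows, 1 hosted a peak, the mix-1 peak beside a snoRNA gene. That is 2.86% of the list and 20.8 peaks per Mb of its eligible windows, which span 48.04 kb. Among all autosomal coding genes 252 of 12898 hosted one (1.95%, 12.9 per Mb), so a list with 1 host was not below that level. The list leaves out the cohesin loader gene scc-2 and the spindle assembly gene rsa-2, which also hosted peaks. Germline and oocyte genes hosted 0 of 32 over 36.4 kb, and ribosomal protein genes 0 of 12 over 2.41 kb. Axon guidance and cell adhesion genes hosted none of 31 over 326 kb, the longest eligible sequence of any list.

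Neuronal, signalling, chromatin and nuclear hormone receptor genes had the highest densities of the lists, and no difference between lists was tested. Of 30 neuronal and synaptic genes 6 were hosts, with 7 peaks over 181 kb (38.7 per Mb). The strongest were unc-119 and unc-43, which encodes CaM kinase II, with signals of 180 and 70.8; the others were unc-64, rab-3, egl-8 and unc-44. Of 33 insulin, TGF-beta, Wnt, Notch and Ras signalling genes 6 were hosts, with 8 peaks over 209 kb (38.3 per Mb). There daf-14, a Smad gene, had a signal of 130 and daf-5, a Ski-related gene that acts with the Smads, 84.3. The others were mpk-1 (the ERK kinase), daf-2 (the insulin receptor), lag-1 (the Notch effector) and daf-16 (the FOXO factor), with signals from 49.3 to 76.6. Support by both replicates was found for 3 of the 7 neuronal and 2 of the 8 signalling peaks, against 40.4% of all 307.

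Chromatin regulators and synMuv genes had 3 hosts of 33 (34.5 peaks per Mb), pbrm-1 (signal 143), lin-35 (53.1) and egl-27 (42.1, an MTA-related gene). Muscle genes had zyx-1 (43.5) and lev-11, the tropomyosin gene (42.2), of 30. Nuclear hormone receptors had nhr-46 (70.1) and nhr-34 (48.1 and 44.96) of the 28 on the list (34.8 peaks per Mb). The list leaves out the receptor genes nhr-19 and nhr-105, which also hosted peaks. The developmental transcription factors had unc-42 (52.04) of 28. These counts are small, and nothing particular to any list was tested.

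Peaks in unc-119 and lin-35 need separate reading because both genes are also in the transgene or rescue construct. The unc-119 peak (chrIII:10905244-10905430) had signals of 180 in the thresholded list, 46.7 in replicate 1 and 128 in replicate 2, at ranks 307, 589 and 257. The lin-35 peak in intron 3 (chrI:5811776-5812071) had a signal of 53.1, with ranks 2518 and 2386. Reads from the inserted and the chromosomal copies cannot be told apart in these lists. The labels do not say which stretches of either gene the inserted DNA holds. The part that extra copies play in these signals was not tested.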

How the data were processed

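LIN-35 ChIP-seq was done in 2 biological replicates of 1 group. As deposited by the authors, each peak list gives a signal value per peak, whose scale is not stated, and a −log10 q-value, which is the same for every thresholded peak and was not used. Per the file names and labels, relaxed lists of each replicate (30000 and 26192 peaks) and of both together (30000) were filtered for reproducibility to 2712 peaks on ce11. For aligner, peak caller and library depth: not given in the sources used here. Files on ce10 and the control library were not used.

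Summits were placed in the Ensembl release 115 annotation of WBcel235 and motifs were counted in the RefSeq WBcel235 genome in windows of 201 bp, on both strands, with overlaps between words allowed. Analyses used Python 3.11.15, pandas 2.3.3, numpy 2.4.6, scipy 1.17.1 and matplotlib 3.10.9. The placing of summits and the replicate lookup were checked on small made-up examples, and Fisher's test on simulated counts. The motif counts were not checked in this way. Intronic peaks were compared with promoter peaks and with distal intergenic peaks by 18 Fisher's exact tests in all, with a threshold of 0.05 on the adjusted p. The members and lists were chosen with earlier results of these data known. Named genes were hosts of the 20 strongest members, up to 2 hosts per list, hosts of 3 or more members, extremes of distance and rank, and the strongest 6 with both DREAM motifs or near an alternative 5' end. Other genes were named after their values were seen. Also chosen after seeing values were GAGA run lengths, offsets and strands, GC bands, intron lengths, replicate-support classes, noncoding neighbours, the 7-base words, the tRNA-box pattern and the printed sequences.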

Additional observations from a re-analysis of the deposited data

How the results depend on the processing

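Alternatives moved the distance limit to 200 or 1000 bp, kept only the 1356 strongest peaks, matched replicates within 100 or 500 bp, used motif windows of 50 bp on each side, took 5' ends of every transcript, merged peaks, or used 1 replicate alone. Of the values recomputed, 156 kept their direction and side of the threshold, 10 moved, 15 reversed, 5 became called and 9 lost their call. The cause was not tested for any of them. With the limit at 200 bp the first-intron share was 38.1%, and against distal intergenic peaks the odds ratio was 0.560 for support by both replicates, 0.472 for the 1356 strongest, 0.661 for E2F and 1.80 for the E-box, all newly called, and 1.02 for GAGA, while presence in both full lists against promoters was 1.07. At 1000 bp that last value was 1.01, and against distal intergenic peaks the reversed E2F word was 1.09 and CHR 0.734 (not called). Among the 1356 strongest, the members numbered 101 and 82.2% were supported. There the odds ratios against promoters were 0.667 for support, 0.859 for the reversed E2F word and 1.52 for the E-box, all with the call lost, and against distal intergenic peaks 0.734 for both lists, 1.94 for the reversed E2F word, 0.578 for CHR (call lost) and 0.821 for the E-box. Matching within 100 bp gave 33.6% support and 78.2% in both lists (odds ratio 0.433 against promoters, newly called, 0.868 against distal), and within 500 bp 99.0% in both lists (3.17 against promoters). With 50 bp on each side the E2F share was 9.12%, CHR 20.5%, the reversed CHR odds ratio against promoters 1.18 and CHR against distal 0.893 (call lost). With either replicate left out, the first-intron share ran from 21.6 to 31.7% and CHR from 34.4 to 43.5%. The odds ratios against promoters then ran from 0.870 to 1.03 for reversed CHR and from 1.60 to 1.88 for the E-box. Against distal intergenic peaks they ran from 0.841 to 1.05 for E2F, 0.724 to 0.916 for CHR, 1.04 to 1.05 for reversed CHR and 0.827 to 1.41 for the E-box. For the 241 members with no noncoding gene within 200 bp, an alternative chosen after seeing the data, support by both replicates was 37.3% and the first-intron share 35.3%. No test was rerun on them. No paired analysis was possible because there is 1 group.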
